A study of Mus musculus with 6 samples.

Results

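Scn3a, Nrxn3 and Pclo are 3 of the 52636 gene IDs in the table, and each symbol matched 1 ID. They were chosen by their CPM values (the reads of a gene scaled to the same total in every library), which were much higher with ibuprofen than without it. That same contrast is therefore a description here, with no test of the 3 genes. RNA came from cells of the thoracic oesophagus sorted for high EpCAM, an epithelial surface protein, from Krt5-CreERT2:R26SmoM2/EYFP mice (K5:Smo). In this line tamoxifen frees a Cre driven by the keratin 5 promoter of basal epithelial cells, which turns on SmoM2, a permanently active Smoothened, with the EYFP reporter. All 6 libraries carry this genotype and date from 12 weeks after tamoxifen. In 3 of them the mice were untreated and in 3 they drank ibuprofen, a cyclooxygenase inhibitor, at 0.6 g/l from the bottle. No library without SmoM2 is among them, and the age of the mice was not given in the sources used here.

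The genes are best known from neurons, where they serve consecutive steps of signalling. Scn3a encodes Nav1.3, a voltage-gated sodium channel that opens on depolarisation and carries the inward current of the action potential, most abundant in the nervous system before birth. Pclo encodes Piccolo, a very large scaffold of the presynaptic active zone, where vesicles fuse. Nrxn3 encodes neurexin 3, a presynaptic adhesion protein that binds neuroligins and other partners across the synaptic cleft. Such genes are held low in most other tissues, in part by the repressor REST. The oesophageal lining is a stratified squamous epithelium, and neurons lie beneath it in the wall.

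Reads per library, estimated from the steps of the values, came to between 6361278 and 8764321, so that 3 reads, the number still possible at a value of 0, were worth 0.342 to 0.472 CPM. These limits cover counting error only. The sorted cells carried the markers of their label, with Epcam at 261 ± 26 CPM untreated against 259 ± 22.7 CPM with ibuprofen and Krt5 at 3616 ± 439 and 2881 ± 225 CPM (SD, n = 3). The titles name the untreated cells as epithelial and the treated ones as oesophageal cells, a wording that follows the treatment. Nothing in the labels tells whether libraries came from separate mice, so the spread between them may be technical. The library names carry 1 code per treatment group and, after it, a number that differs between the libraries, both of unstated meaning. Whatever the group code marks cannot be told apart from the treatment.

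Scn3a, the sodium channel gene, had 3.35, 5.4 and 2.45 CPM in untreated replicates 1, 2 and 3. With ibuprofen it had 26.8, 21 and 22.6 CPM. The lowest treated library was 3.9 times the highest untreated one, and the treated libraries lay close together. The means were 3.73 ± 1.51 and 23.5 ± 3.00 CPM (SD, n = 3), a ratio of 6.30. On the log2(CPM + 1) scale, which understates differences of low genes, the difference was 2.41 ± 0.23 (SE), the highest of the 16684 tested genes. Tested genes are those with at least 1 CPM in at least 3 of the 6 libraries. The values rest on an estimated 21, 47 and 21 reads untreated and 219, 162 and 198 reads with ibuprofen.

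**Figure D1:**
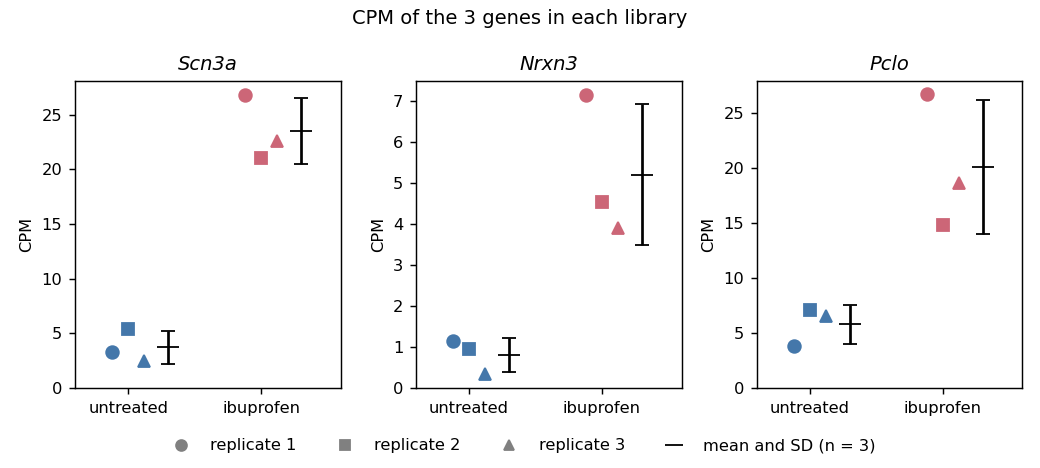
CPM of Scn3a, Nrxn3 and Pclo (vertical axes, each from 0) in 3 untreated (blue) and 3 ibuprofen libraries (red), with the symbol giving the replicate number and the bar the mean and SD. In each panel the treated libraries lie above the untreated ones, and ibuprofen replicate 1 is the highest, at 26.8, 7.14 and 26.7 CPM.

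Pclo, the active zone scaffold gene, had 3.8, 7.09 and 6.55 CPM in the untreated replicates. In the ibuprofen replicates it had 26.7, 14.8 and 18.6 CPM. The groups did not overlap, with the lowest treated library 2.09 times the highest untreated one, but the treated libraries were spread more widely than for Scn3a. The means were 5.81 ± 1.77 and 20.1 ± 6.08 CPM (SD, n = 3), a ratio of 3.45, and the log2 difference was 1.63 ± 0.25 (SE). An estimated 24, 62 and 56 reads stood behind the untreated values and 218, 114 and 163 reads behind the treated ones.

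Nrxn3, the neurexin gene, was the lowest of the 3, at 1.15, 0.949 and 0.35 CPM untreated, or 7, 8 and 3 estimated reads. With ibuprofen it had 7.14, 4.55 and 3.9 CPM, or 58, 35 and 34 reads. The groups again did not overlap, and untreated replicate 3 was at the level of 3 reads. The means were 0.816 ± 0.416 and 5.2 ± 1.72 CPM (SD, n = 3), a ratio of 6.37, with a log2 difference of 1.76 ± 0.26 (SE). Scn3a and Pclo reached 1 CPM in all 6 libraries, and Nrxn3 in 4, the 3 treated ones and untreated replicate 1, so that it entered the test mainly through the group in which it is high.

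Across all tested genes, 14.2% had every ibuprofen library above every untreated one, as in these 3 genes, in which the choice fixed it. Ranked by log2 difference, Scn3a was number 1, Nrxn3 number 19 and Pclo number 25. Relative to the untreated mean, ibuprofen replicates 1, 2 and 3 stood 2.6, 2.27 and 2.37 log2 units higher in Scn3a. For Nrxn3 these distances were 2.19, 1.64 and 1.46, and for Pclo they were 2.06, 1.25 and 1.56. Ibuprofen replicate 1 was thus the highest library for each gene, while the order of the other treated libraries differed between Nrxn3 and the other two. In that library the summed fibroblast markers were also high, at 549 CPM against 335 to 376 CPM in the other 5 libraries. Without it the log2 differences were 2.32 for Scn3a, 1.55 for Nrxn3 and 1.41 for Pclo.

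Levels of different genes can be compared only per length. Per kb of annotated exon, untreated Scn3a averaged 0.299 ± 0.121 CPM, Pclo 0.259 ± 0.0787 CPM and Nrxn3 0.0647 ± 0.033 CPM per kb (SD, n = 3). The ranges of Scn3a, 0.196 to 0.433, and of Pclo, 0.169 to 0.316, overlapped. With ibuprofen the order was Scn3a at 1.88 ± 0.241, Pclo at 0.893 ± 0.271 and Nrxn3 at 0.412 ± 0.136 CPM per kb, and the ranges of these levels did not overlap. In bulk cells such as these, a change in the number of cells that express a gene and a change in RNA per cell cannot be told apart.

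Scn3a (ENSMUSG00000057182) lies on the reverse strand of chromosome 2 in GRCm38, chr2:65457118-65567627, beside its paralogue Scn2a. The sodium channel alpha genes are alike enough that reads can match more than 1 of them. Over the whole of the Scn3a transcripts, 811 of 12500 different stretches of 50 bases, or 6.49%, also occur in transcripts of other genes, chiefly Scn2a, Scn9a and Scn1a. In every library Scn1a, Scn2a, Scn8a and Scn9a were at or below 0.849 CPM, far below Scn3a.

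Among the sodium channel alpha genes, which form the pore, Scn3a had the highest level per kb in untreated replicates 1 and 2 and in ibuprofen replicates 1 and 2. Its share of the summed level per kb of the 10 Scn alpha genes was 42.5%, 46.4% and 26.6% in the untreated libraries. With ibuprofen it was 82.3%, 79.8% and 42.9%. Since Scn3a was chosen for its rise, these shares are a description too. The low share in ibuprofen replicate 3 went with Scn4a, the sodium channel gene of skeletal muscle, which had 15.4 CPM there, 2.95 and 2.10 CPM in the other treated libraries and 0.799 to 1.05 CPM in the untreated ones. Scn4a had a log2 difference of 1.6 ± 0.49 and a limma adjusted p of 0.144. Among the untreated libraries it reached 1 CPM in replicate 3 alone, so it entered the test mainly through the group in which it is high. Scn7a, which encodes the atypical channel Nax, was lower with ibuprofen, at 0, 0.3 and 0.6 CPM in replicates 1, 2 and 3, where the untreated replicates had 1.6, 1.95 and 1.75 CPM. Its log2 difference was -1.11 ± 0.24 with a limma adjusted p of 0.0703, and with a correction for GC content the adjusted p was 0.0401. Scn7a entered the test through the untreated libraries alone, the group in which it is high, so its p is no support for a difference. Without ibuprofen replicate 3 the log2 difference of Scn4a was 0.86. These were the only other alpha genes tested, since the other 8 of the list, Scn2a and the related leak channel gene Nalcn among them, averaged at most 0.583 CPM in either group, with Scn10a, a channel of sensory neurons, at 0 in all 6 libraries.

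Of the beta subunits and partners of the channel 6 of 11 genes were tested, with a median log2 difference of 0.5 beside 0.04 for all tested genes, and limma called 0, with 3 higher and 0 lower at an unadjusted p under 0.05, beside 11.8% and 6.17% of all tested genes. Ank3, ankyrin G, which anchors sodium channels to the membrane skeleton, had 137 ± 19.8 CPM untreated against 206 ± 30.9 CPM with ibuprofen (0.59 ± 0.14, limma adjusted p = 0.0867). The beta subunit gene Scn4b had 1.1 ± 0.229 and 2.4 ± 0.708 CPM (0.68 ± 0.23, limma adjusted p = 0.176). The ubiquitin ligase gene Nedd4l, whose product removes sodium channels from the membrane, had 79.4 ± 9.05 and 110 ± 36.3 CPM.

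**Figure D2:**
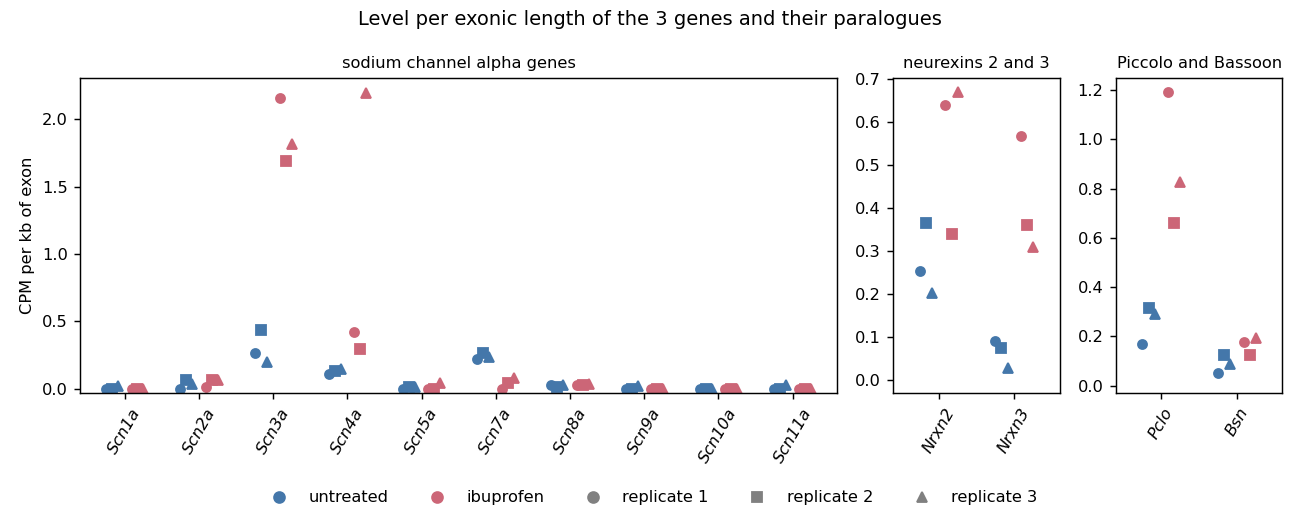
CPM per kb of annotated exon (vertical axes) of the sodium channel alpha genes, Nrxn2 and Nrxn3, and Pclo with its relative Bsn, in each untreated (blue) and ibuprofen (red) library, with the symbol giving the replicate. Scn3a stands at 1.69 to 2.15 CPM per kb with ibuprofen, and Scn4a reaches a like level in ibuprofen replicate 3 alone.

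Nrxn3 (ENSMUSG00000066392) spans chr12:88722876-90334935 of GRCm38 on the forward strand, 1612 kb. Neurexin genes make long alpha forms from an upstream promoter and short beta forms from an internal one. The deposited values are sums per gene and do not tell the forms apart. The RefSeq table of starts (GRCm38.p6) holds 3 starts of Nrxn3. The 250 bases before the most internal one, at chr12:89812233-89812482 on the forward strand, are shown because they hold the most G and C of the 3 windows.
Nrxn3: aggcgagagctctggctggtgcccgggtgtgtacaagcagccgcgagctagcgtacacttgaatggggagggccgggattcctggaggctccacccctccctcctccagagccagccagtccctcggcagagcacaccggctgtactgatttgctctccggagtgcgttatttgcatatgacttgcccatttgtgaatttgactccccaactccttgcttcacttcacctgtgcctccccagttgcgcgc
The window is 60% G and C with 12 CpG dinucleotides, where the medians over 32851 such windows are 52.4% and 6. The other Nrxn3 windows are 45.6% and 46.8% G and C, with 2 and 5 CpG dinucleotides. The letters GGGCGG, the GC box, are absent from it on both strands, and are found in 32.7% of all windows.

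Nrxn2, a paralogue that encodes neurexin 2, had 3.5, 5.05 and 2.8 CPM untreated against 8.84, 4.7 and 9.24 CPM with ibuprofen, which overlapped (0.83 ± 0.27, limma adjusted p = 0.156). Per kb of exon Nrxn2 was above Nrxn3 in each untreated library. With ibuprofen it was above Nrxn3 in replicates 1 (0.64 against 0.567 CPM per kb) and 3 (0.669 against 0.309). In ibuprofen replicate 2 it was slightly below, at 0.34 against 0.361 CPM per kb.

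Among the neurexins other than Nrxn3, their ligands and adaptors, 12 of 30 genes were tested, with a median log2 difference of 0.09. Limma called 0 of them, with 5 higher and 1 lower at an unadjusted p under 0.05 (11.8% and 6.17% of all tested genes). Lrrtm2, a postsynaptic leucine-rich repeat ligand, had 46.5, 50.9 and 78.7 CPM untreated against 87.4, 93 and 91.8 CPM with ibuprofen (0.66 ± 0.17, limma adjusted p = 0.107). The most abundant genes of the list had log2 differences of -0.12 and -0.11, with Dag1, dystroglycan, at 438 ± 25.9 and 405 ± 42.7 CPM and Clstn1, calsyntenin 1, at 280 ± 6.74 and 260 ± 26.2 CPM. Adgrl2, a latrophilin, had a log2 difference of 0.17 ± 0.11. The neuroligin gene Nlgn1, a main ligand of neurexins at excitatory synapses, was at 0 in every library.

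Pclo (ENSMUSG00000061601) spans chr5:14514918-14863459 of GRCm38 on the forward strand. The 250 bases before its RefSeq start (GRCm38.p6), chr5:14514668-14514917, are shown beside those of Nrxn3, with GC boxes in capitals.
Pclo: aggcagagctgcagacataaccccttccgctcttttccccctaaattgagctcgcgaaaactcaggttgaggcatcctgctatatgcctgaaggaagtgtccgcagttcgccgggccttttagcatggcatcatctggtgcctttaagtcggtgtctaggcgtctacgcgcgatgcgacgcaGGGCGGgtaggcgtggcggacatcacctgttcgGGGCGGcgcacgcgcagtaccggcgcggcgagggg
This window is 61.2% G and C with 25 CpG dinucleotides and holds 2 GC boxes. Searched on both strands, TATAAA (the TATA box), TGACGTCA (the cyclic AMP response element), CACGTG (an E-box), GAANNTTC (a heat shock element), GACCACCCA (the GLI consensus) and TTCAGCACC and GGACAGC (parts of the element bound by REST) gave 0 matches in it and 0 in the internal Nrxn3 window. Of all windows 12.4%, 1.55%, 6.02%, 6.69%, 0.225%, 0.301% and 5.28% hold these letters, in the same order. These letters are thus absent from both windows, as they are from most windows.

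Bsn, which encodes Bassoon, the partner of Piccolo at the active zone, had 0.799, 1.95 and 1.4 CPM untreated against 2.85, 1.95 and 3.1 CPM with ibuprofen (0.62 ± 0.25, limma adjusted p = 0.225). Pclo made up 72.1% to 77.1% of the summed level per kb of both genes untreated and 81% to 86.9% with ibuprofen. Since Pclo was chosen for its rise, these shares are a description too. Of the other active zone genes listed 13 of 23 were tested, Bsn included, with 8 positive and 5 negative log2 differences, a median of 0.12, and 0 called by limma. At an unadjusted p under 0.05 3 were higher and 3 lower, beside 11.8% and 6.17% of all tested genes. Unc13b, a vesicle priming factor, had 33 ± 1.9 and 24 ± 5.69 CPM (-0.46 ± 0.16, limma adjusted p = 0.182). Rapgef4, the cyclic AMP sensor Epac2, had 4.11 ± 2.83 and 8.64 ± 3.39 CPM. The widely expressed scaffold genes Ppfia1, Erc1 and Git1 had 121 ± 8.92 and 103 ± 1.2, 110 ± 8.6 and 104 ± 3.47, and 56.8 ± 2 and 57.1 ± 5.4 CPM. The vesicle release gene Rims1 was at 0 in the untreated libraries and at most 0.3 CPM with ibuprofen, and Rph3a, a Rab3 effector, was at 0 in all.

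Reads of neighbours on the other strand could be counted with these genes, since whether counting used strand is not given in the sources used here. Inside the span of Pclo lie the antisense genes Gm26918, with 0.2, 0.849 and 0.25 CPM untreated against 2.25, 0.949 and 0.5 CPM with ibuprofen, and Gm26954, with 0.15 to 0.25 and 0.65 to 1.25 CPM. Both were far below Pclo itself, and the 8 other models within Pclo had at most 0.5 CPM. Of different 50-base stretches of the Pclo transcripts 792 of 22591, or 3.51%, occur in transcripts of 13 other genes, and for Nrxn3 395 of 13008, or 3.04%, occur in 1, which is at 0 in all libraries. The 1 gene inside Scn3a, Gm13595, had at most 0.25 CPM, and the 5 inside Nrxn3 at most 0.4 CPM. Of the protein-coding genes next to the 3 genes, Scn2a and Slc38a11 by Scn3a, Dio2 by Nrxn3 and Gm9758 by Pclo were too low to be tested. Adck1, next to Nrxn3, had a log2 difference of -0.28 ± 0.21 (limma adjusted p = 0.504) and Sema3e, next to Pclo, -0.31 ± 0.2 (limma adjusted p = 0.415).

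Leaving aside the 3 genes, for which no test is given, no listed neuronal gene was called in the main test, their close relatives included. The 10 lists of channel, synapse and nerve cell genes hold 170 further genes, of which 72 were tested and 98 were too low. In limma 0 of the 72 were called higher and 0 lower at an adjusted p under 0.05, beside 0.3% and 0.222% of all tested genes. Counting unadjusted p under 0.05 instead gave 22 higher and 5 lower, or 30.6% and 6.94%, beside 11.8% and 6.17% of all. Among them Srrm3, higher, entered the test through the ibuprofen libraries alone, and Scn7a, lower, through the untreated libraries alone. For these genes the p is no support for a difference. Every ibuprofen library lay above every untreated one in 17 of the 72 and below in 4, beside 14.2% and 8.73% of all. Of the 72, 55 had positive differences, 76.4% beside 56.3% of all, and the median was 0.22 beside 0.04. With voom on estimated reads the count called was also 0. Without untreated replicate 3 it was 5 of 70 tested, 3 higher and 2 lower, beside 456 of all 16433 genes tested there. With library weights it was 16 of 72, 11 higher and 5 lower, beside 2462 of all 16684.

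**Figure D3:**
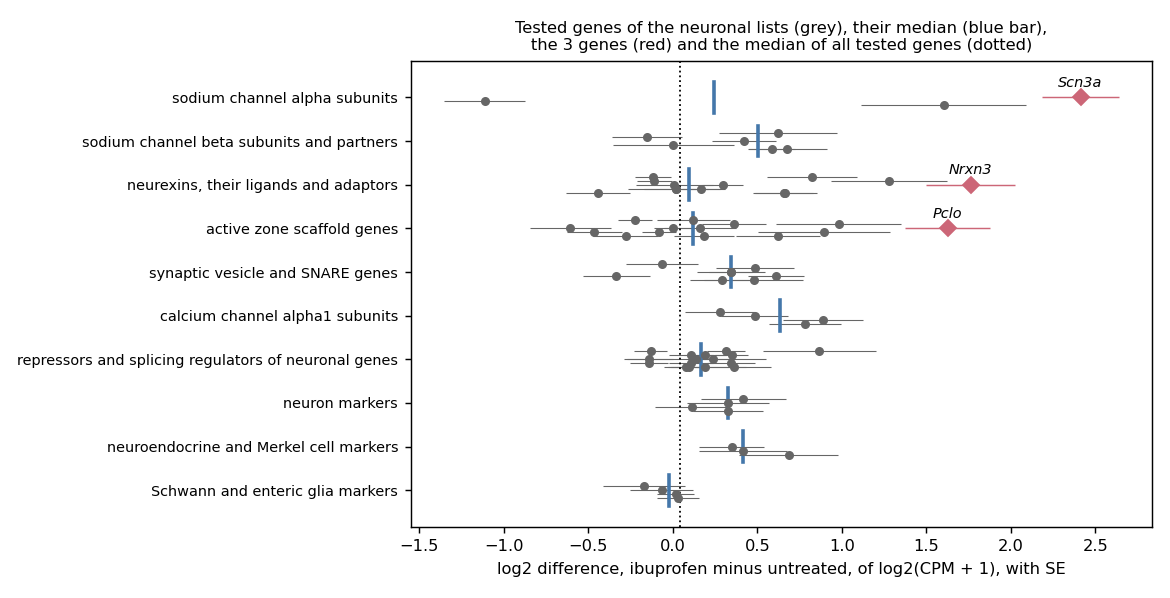
Log2 difference, ibuprofen minus untreated, of log2(CPM + 1) with its SE (horizontal axis) for each tested gene of 10 lists. Grey points are listed genes, blue bars their medians, red diamonds Scn3a, Nrxn3 and Pclo, and the dotted line the median of all tested genes, 0.04.

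In the synaptic vesicle and membrane fusion list 8 of 23 genes were tested, with a median of 0.34, and limma called 0, with 2 higher and 0 lower unadjusted, beside 11.8% and 6.17% of all tested genes. The vesicle proteins' genes Vamp1 and Vamp2 had 8.38 ± 1.12 and 13.3 ± 1.03 CPM, and 28.5 ± 3.16 and 36.2 ± 1.09 CPM, with limma adjusted p of 0.12 and 0.201. Cplx2, a complexin that clamps fusion, had 11.1 ± 2.54 and 13.6 ± 1.87 CPM. Of the calcium channel alpha1 genes, which trigger release or carry slow calcium currents, 4 of 10 were tested and all 4 differences were positive, with a median of 0.63, where 56.3% of all tested genes had positive ones. Limma called 0 of the 4, and 3 were higher at an unadjusted p under 0.05, beside 11.8% of all. Cacna1c had 4.46 ± 1.56 and 8.86 ± 1.26 CPM (0.89 ± 0.24, limma adjusted p = 0.116), and Cacna1a, the P/Q-type channel gene of nerve endings, had 2 ± 0.218 and 4.21 ± 0.944 CPM (0.78 ± 0.21, limma adjusted p = 0.12). Cacna1d had 4.93 ± 0.781 and 7.31 ± 1.32 CPM, and Cacna1g 3.21 ± 0.831 and 4.05 ± 0.132 CPM.

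Genes that repress or splice neuronal genes gave 0 calls by limma among 16 tested of 18 listed, with a median of 0.16. At an unadjusted p under 0.05, 4 were higher and 0 lower, beside 11.8% and 6.17% of all tested genes. The higher ones include Srrm3, with 0.2, 0.6 and 0.849 CPM untreated against 1.15, 1.05 and 3.9 CPM with ibuprofen. It entered the test through the ibuprofen libraries alone, so its p is no support for a difference. Rest itself had 69, 73.2 and 83 CPM untreated against 92.3, 80.3 and 93.5 CPM with ibuprofen (0.24 ± 0.11, limma adjusted p = 0.295). The demethylase gene Kdm1a, whose product works with REST, had 106 ± 11.9 and 132 ± 8.4 CPM, and its partner gene Rcor1 184 ± 12.7 and 168 ± 6.5 CPM. Ptbp1, which blocks neuronal exons outside neurons, had 688 ± 15.7 and 736 ± 59.4 CPM, and Ptbp2, its neuronal relative, 115 ± 22.7 and 145 ± 13.9 CPM. The splicing factor gene Rbfox2 had 104 ± 7.2 and 132 ± 3.07 CPM, groups that did not overlap (0.35 ± 0.1, limma adjusted p = 0.129).

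Markers of nerve cells were low or absent. Of 20 neuron markers 4 were tested, and Elavl4, Uchl1 and Dcx, which mark neurons or their precursors, were at 0 in all 6 libraries. The summed neuron markers ranged from 30.2 to 42.3 CPM untreated and from 42.5 to 54.8 CPM with ibuprofen. Most of this was Map2, a microtubule protein gene, at 28.5 ± 6.76 and 36.1 ± 8.6 CPM. Ret, a receptor of enteric neurons, had 2.03 ± 0.368 and 2.88 ± 0.986 CPM. The glial list summed to 284 to 364 CPM untreated against 304 to 345 CPM with ibuprofen, carried by Erbb3 (146 ± 24.4 and 148 ± 5.89 CPM), Ngfr and Mbp, while the defining glial gene Sox10 averaged 0.3 and 0.783 CPM. Ngfr had 90.2 ± 20.9 and 85.9 ± 19.3 CPM.

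The summed neuroendocrine and Merkel cell markers lay between 9.34 and 11.2 CPM untreated and between 17.2 and 25.4 CPM with ibuprofen. The groups did not overlap, and 14.2% of single tested genes also had every ibuprofen library above every untreated one. The neuron marker sums nearly touched, at 42.3 CPM in the highest untreated and 42.5 CPM in the lowest treated library. The highest neuroendocrine and Merkel cell sum held 11.7 CPM of the granule protein gene Chgb. Of the 13 genes 3 were tested, with a median log2 difference of 0.42, and limma called 0. Of the 3, 1, the granule protein gene Chga, was higher at an unadjusted p under 0.05, beside 11.8% of all tested genes. Chga reached 1 CPM in every treated library but only in replicate 1 of the untreated ones. Like Nrxn3, it entered the test mainly through the group in which it is high. Piezo2, a mechanosensitive channel gene, had 4.6 ± 0.218 and 6.2 ± 1.24 CPM, and Krt20, a keratin of Merkel cells, 4.06 ± 1.35 and 5.75 ± 1.75 CPM. Chgb had 1.75, 11.7 and 0.35 CPM in ibuprofen replicates 1, 2 and 3 and at most 0.2 CPM untreated. Ibuprofen replicate 2, with the most Chgb, was the lowest treated library for Scn3a and Pclo, while replicate 3, with the least, was the lowest for Nrxn3. Chgb itself was not among the tested genes. Calca, a neuropeptide gene of such cells, was at 0 in all libraries. The part of such cells in the values of Scn3a, Nrxn3 and Pclo was not tested.

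**Figure D4:**
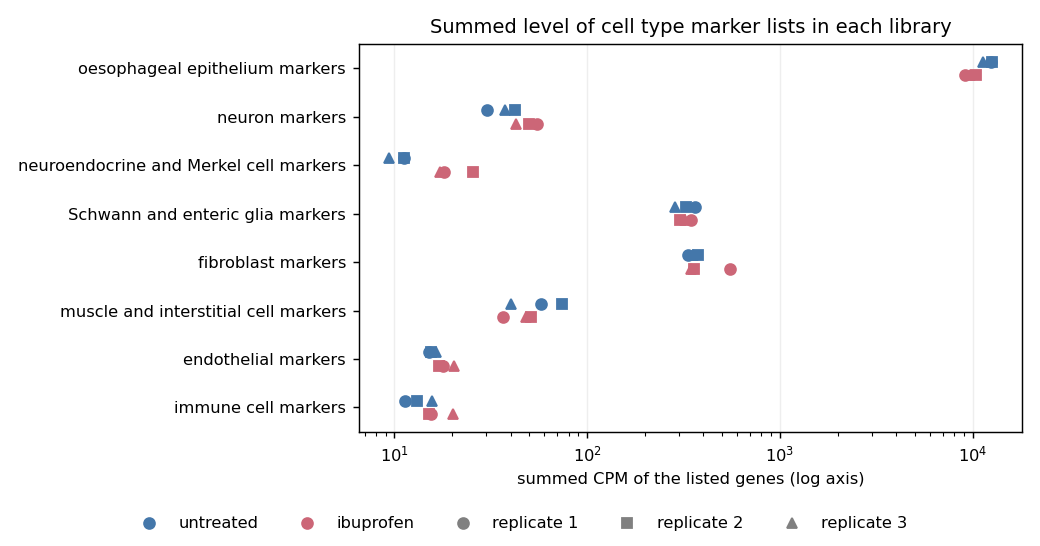
Summed CPM (horizontal log axis) of each list of cell type markers in the untreated (blue) and ibuprofen (red) libraries, with the symbol giving the replicate. Epithelial markers sum to 9072 to 12631 CPM, and the fibroblast list stands apart in ibuprofen replicate 1, at 549 CPM.

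Limma called 0 markers of other cells, and voom 0. At an unadjusted p under 0.05, 3 of 9 tested epithelial and 2 of 6 tested muscle markers were lower, beside 6.17% of all tested genes, and 1 of 3 tested immune markers, Cd68, was higher, beside 11.8%. The epithelial ones were the basal keratin genes Krt5, Krt14 (-0.54 ± 0.16, limma adjusted p = 0.132) and Krt15 (-0.64 ± 0.13, limma adjusted p = 0.0615). The muscle ones, Acta1 and Ckm, entered the test through the untreated libraries alone. Epithelial markers summed to 11266 to 12631 CPM untreated against 9072 to 10339 CPM with ibuprofen, with Krt13, a suprabasal keratin gene, at 2315 ± 205 and 1909 ± 509 CPM. Fibroblast markers, 9 of 10 tested, were led by Fbln1 and Dcn, which had 289 ± 15.9 and 309 ± 73.6, and 48.1 ± 19.6 and 68 ± 17.8 CPM. The muscle and interstitial cell list, 6 of 11 tested, was led by Ano1 and Tagln and summed to 40 to 73.8 CPM untreated against 36.5 to 50.9 CPM with ibuprofen. The endothelial list summed to 15.1 to 16.5 and 17 to 20.3 CPM, with Pecam1 at 11.5 ± 1.02 and 14.4 ± 1.98 CPM and Vwf, the von Willebrand factor gene, at 2.48 ± 0.642 and 3.53 ± 0.775 CPM. The immune list summed to 11.3 to 15.6 and 15.1 to 20.2 CPM, with Cd68 at 5.2 ± 1.39 and 8.59 ± 0.736 CPM, Cd52 at 6.23 ± 0.55 and 5.33 ± 1.36 CPM and the macrophage gene Adgre1 at 0 throughout.

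The genes whose profiles over the 6 libraries were most like those of the 3 were sought by the root-mean-square difference of log2(CPM + 1) after centring each gene on its own mean, over the 12416 tested genes left without predicted, clone-named and pseudogene symbols. Between the 3 genes themselves it was 0.41 log2 units for Scn3a and Nrxn3, 0.42 for Nrxn3 and Pclo and 0.51 for Scn3a and Pclo. Among these genes, nearest to Scn3a were Greb1l (0.35), Serpinb9b (0.35), Cdh11 (0.4), Nrxn3 and Pclo. Nearest to Nrxn3 were Serpinb9b (0.18), a serpin gene, Cdh11 (0.24), a cadherin gene of mesenchymal cells, Fcgbp (0.33), Kcnb2 (0.36) and Amot (0.37). Nearest to Pclo were Amot (0.18), angiomotin, Gjb6 (0.18), the gap junction gene connexin 30, Atp6v1b1 (0.24), Kcnb2 (0.24) and Chrm3 (0.26). Kcnb2, a voltage-gated potassium channel gene, had 0, 0.25 and 0.25 CPM untreated against 2.5, 2.1 and 1.95 CPM with ibuprofen. Chrm3, the muscarinic acetylcholine receptor M3, had 4.6, 6 and 4.8 CPM untreated against 17.3, 10.3 and 14.8 CPM with ibuprofen. Gjb6 had 16.3, 22.2 and 26.4 CPM untreated against 92.5, 40 and 63.6 CPM with ibuprofen, in the same order of treated libraries as Pclo. Since likeness to the 3 genes chose these genes, their differences are descriptions too.

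The 3 genes also share a long genomic span, 111 kb for Scn3a, 349 kb for Pclo and 1612 kb for Nrxn3, against a median of 15.9 kb for all tested genes. The spans lie in the top decile, which begins at 100.65 kb. Their exons are long as well, 12.5, 22.5 and 12.6 kb against a median of 3.56 kb. Transcript GC content was 41.9%, 46.6% and 49.6% for Scn3a, Pclo and Nrxn3, against a median of 49.7%. Over all tested genes limma called 0.521% in either direction. Of the 1672 other tested genes with a span of at least 100 kb, limma called 20 higher and 4 lower at an adjusted p under 0.05. Of the 14971 shorter genes it called 27 higher and 33 lower.

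**Figure D5:**
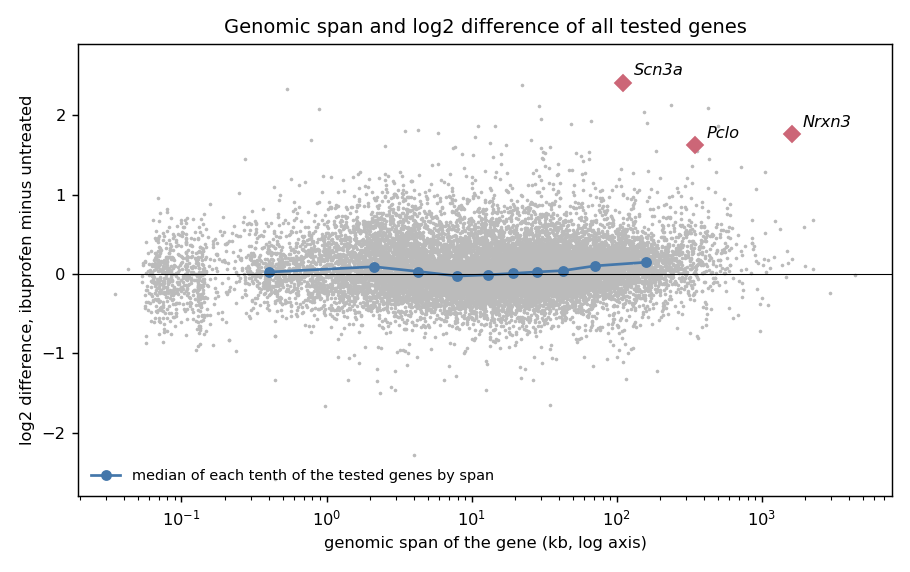
Genomic span of each tested gene (horizontal log axis, kb) and its log2 difference, ibuprofen minus untreated (vertical axis), with all tested genes in grey, the median of each decile of genes by span in blue, and Scn3a, Pclo and Nrxn3 in red. The median is 0.15 in the top decile, and the 3 genes lie far above it.

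The median log2 difference was 0.15 in these longer genes and 0.03 in shorter ones, and 71.2% and 54.6% of them had positive differences. After correction for GC content the medians were 0.05 and -0.03, and the log2 differences of Scn3a, Nrxn3 and Pclo were 2.22, 1.7 and 1.51. The libraries differed in this respect within a group, since long genes had a median deviation from their 6-library mean of -0.19, -0.04 and 0.02 in untreated replicates 1, 2 and 3. In the ibuprofen replicates it was 0.07, 0.04 and 0.1. Without untreated replicate 1 the medians were 0.08 and 0.01. The count of calls over all genes, 87, depends on single libraries. Leaving out untreated replicate 1, 2 or 3 gave 4, 5 or 456 calls, and leaving out ibuprofen replicate 1, 2 or 3 gave 23, 91 or 44. The part of gene length in the values of the 3 genes was not tested.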

How the data were processed

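The deposited values are CPM, as the file headers name them, 1 column for each of 6 libraries. Tools listed, without their roles, in the submitters' processing notes are Cell Ranger 3.1.0, edgeR, HTSeq and STAR 2.5.3a, and the builds listed are mm10 and GRCm38. The sources used here do not give the annotation release, strand setting or filters. Low values fell on steps such as whole reads rescaled to 1 total and rounded upwards would leave. Reads were estimated from them, at least 99.6% of values above 0 being returned exactly.

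Genes with at least 1 CPM in at least 3 libraries were tested with limma 3.58.1 in R 4.3.3 after a log2(CPM + 1) transform, using a trended prior variance and Benjamini-Hochberg adjustment over 16684 genes, called at an adjusted p under 0.05. The procedure was tested on simulated data. It called 82% of 100 genes raised 2-fold and 100% of 100 raised 4-fold, and with them 35 unchanged genes. In a simulation with no change it called 0. Spans, exon lengths and GC content came from GENCODE M21 (GRCm38), which holds 52403 of the 52636 IDs, and promoter windows from RefSeq (GRCm38.p6), which matched 2 of the 3 genes.

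The 3 genes and the 15 gene lists were chosen with earlier results of these data known. Named list genes are the 3 most abundant and the 2 with the smallest p of each family list, the 2 most abundant markers of each cell type, those at 0, neighbours, and the 5 nearest profiles per gene. The tested genes nearest by profile leave out predicted, clone-named and pseudogene symbols. Scn1a, Scn2a, Scn8a, Scn9a, Scn10a, Nrxn2, Nlgn1, Bsn, Rims1, Rph3a, Nalcn, Rest, Srrm3, Mbp, Sox10, Chga, Chgb, Krt14, Krt15, Acta1, Ckm and Epcam were named outside this rule, with their values seen. Alternatives covered the pseudocount, filter, scaling, library weights, shrinkage, GC content, replicate block and each library left out. Some listed genes are not reported here.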

Additional observations from a re-analysis of the deposited data

How the results depend on the processing

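The log2 differences of Scn3a, Nrxn3 and Pclo kept their sign under every alternative that tested them, at 2.04 to 2.7, 1.34 to 2.74 and 1.38 to 1.81. The lowest value of Scn3a, 2.04, came with library weights. Nrxn3 had 1.34 with a pseudocount of 2 and 2.74 with voom on estimated reads, an alternative added after seeing the data, and was too low for the filter of 5 CPM. With 1 library left out the ranges were 2.21 to 2.65, 1.55 to 1.92 and 1.39 to 1.81. These genes were chosen for their rise, and the groups of each gene do not overlap. A dropped library, another pseudocount or filter, weights, shrinkage or a block could therefore not turn a sign. The scaling factors, 0.945 to 1.045, were too close together to do so, since for Pclo, the narrowest case, the groups stood 2.09-fold apart. The kept sign is thus no support for the rise, and only the size of the differences could vary.

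The count of genes called by limma, 87, was 52 with no filter, 2462 with library weights and 57 with voom, and 4 to 456 with 1 library left out. Higher and lower calls were 50 and 37 as deposited, 35 and 41 with TMM scaling, 36 and 38 with median-of-ratios scaling and 47 and 60 after GC correction. Of the listed neuronal genes other than the 3, 0 were called in the main test, 16 with library weights, 1 after GC correction, which was Scn7a, and 0 to 5 with 1 library left out.

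Deviations from the group means had correlations of 0.000173, 0.0798 and 0.153 between same-numbered libraries of replicates 1, 2 and 3. Between differently numbered libraries they were -0.144 to 0.0973. These values do not settle whether the numbers mark pairs, which were not assumed in the main test. With a replicate block 434 genes were called, 263 with GC correction and replicate block, and 5 and 1 of the listed neuronal genes, while the log2 differences of the 3 genes with the block were 2.41, 1.76 and 1.63. The cause of these shifts was not tested. Depth limits Nrxn3 most, with 3 to 8 estimated reads per untreated library.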
